A study of Mus musculus with 18 samples.

Results

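Tubulins are the proteins of which microtubules are built. The tubulin genes Tuba1a, Tuba1b, Tuba1c, Tuba4a, Tubb2a, Tubb2b, Tubb3, Tubb5, Tubb6 and Tubg1, were taken by name from a deposited table of RNA sequencing values, and all 10 were found among its 23228 gene symbols. They were compared between 2 mouse samples of the ICR strain with the genotype label WT. One was made of cells sorted at E12.5 from neural tubes of embryos carrying 2.3Ptf1a::GFP, a transgene in which a 2.3 kb enhancer that Ptf1a itself acts on, with a basal promoter of beta-globin, drives GFP. Only the GFP-positive cells were kept, after dissociation in trypsin. The other was the whole E15.5 pancreas, which carried no transgene in its labels and was not sorted, so it held every cell type of the organ. Each sample named 2 libraries, and the table gave 1 value per gene and sample, so there were no replicate values and no test could be made. The other 16 of the 18 samples of the series were chromatin samples and are not analysed here.

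Alpha and beta tubulin form a heterodimer, and heterodimers join end to end into the wall of the microtubule. Gamma tubulin sits at the minus end, in a ring complex from which new microtubules grow. Mammals carry several genes for alpha and for beta tubulin, whose proteins, called isotypes, are alike in the body of the molecule and differ mainly in a short acidic tail at the carboxyl end. That tail lies on the outer surface of the microtubule and is where several tubulin-modifying enzymes act. Developing neurons, which build microtubules into axons and dendrites, are known for high Tuba1a, Tubb2a, Tubb2b and Tubb3, and the TUBB3 protein is a widely used marker of young neurons. Tubb5 and Tuba1b are expressed broadly.

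The coding ends of some alpha and beta genes are shown first, because isotypes are known to differ mainly there, though not every pair does. Sequences are those of GENCODE M1 transcripts on NCBIM37 (mm9), read 5′ to 3′, and were identical to the genome at the positions given. For Tuba1c and Tuba4a the last 45 coding bases are printed, stop codon included, with the last codon before the stop in capitals.
Tuba1c (chr15:98868396-98868440, plus strand): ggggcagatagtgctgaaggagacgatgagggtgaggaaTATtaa
Tuba4a (chr1:75212197-75212241, minus strand): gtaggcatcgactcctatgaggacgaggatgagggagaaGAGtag
Tuba1c ended in a tyrosine codon (TAT). Tuba4a ended in a glutamate codon (GAG) and so encodes no terminal tyrosine. As background, that tyrosine is removed from alpha tubulin by vasohibins and put back by tubulin tyrosine ligase. Tuba1a and Tuba1b encode proteins of 451 residues that differ at 2 residues, and their coding sequences differ at 23 of 1356 bases.

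For 4 of the beta genes the coding end is printed from 6 codons that encode the same residues in all 4, ending at residue 430, in lower case, with the tail that follows in capitals, stop codon included.
Tubb2a (chr13:34166337-34166402, minus strand): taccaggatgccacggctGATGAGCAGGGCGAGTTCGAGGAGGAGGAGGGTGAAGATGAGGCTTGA
Tubb2b (chr13:34219340-34219405, minus strand): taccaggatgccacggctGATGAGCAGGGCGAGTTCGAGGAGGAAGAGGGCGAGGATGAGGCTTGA
Tubb3 (chr8:125945502-125945582, plus strand): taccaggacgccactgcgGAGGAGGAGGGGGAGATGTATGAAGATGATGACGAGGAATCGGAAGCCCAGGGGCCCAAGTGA
Tubb5 (chr17:35971927-35971989, minus strand): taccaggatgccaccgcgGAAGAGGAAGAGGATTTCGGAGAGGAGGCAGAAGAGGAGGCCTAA
After residue 430 the tail of Tubb3 held 20 codons, against 15 in Tubb2a, 15 in Tubb2b and 14 in Tubb5. The Tubb3 tail encoded 11 acidic residues and the others 10 each. Tubb2a and Tubb2b encode proteins of 445 residues that differ at 2 residues, both outside the printed stretch. Within that stretch some bases differed, but the encoded residues were the same. Among these 4 Tubb3 was the most distant protein, with 91.1% identity to Tubb5 and 90.7% to Tubb2a, whereas Tubb2a and Tubb5 shared 95.3%. Tubb6, whose end is not printed, was about as distant, with 91.1% to Tubb5 and 90.2% to Tubb2a.

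As a group, the 10 genes were far more abundant in the sorted neural tube cells. Their values were in FPKM, that is, mapped fragments per unit of transcript length and of library total, and summed to 9086 FPKM in neural tube and 2028 FPKM in pancreas, a ratio of 4.48. That was 1.99% of all FPKM in neural tube and 0.288% in pancreas. In neural tube 7 of the 10 stood among the 150 most abundant genes, and in pancreas 1 did, Tuba1b at rank 139. Below, higher means a difference of 2 or more in log2(FPKM + 1), which is 4 times, where the larger value reached 5 FPKM. Similar means within 2 times on that scale with neither value under 5 FPKM. Both rules are of size only. By them 4 of the 10 genes were higher in neural tube (Tuba1a, Tubb2a, Tubb2b and Tubb3), beside 10.3% of the 10744 genes in the table that reached 5 FPKM somewhere. Tuba4a was the 1 gene higher in pancreas, against 11.9% of all genes. Tuba1b and Tubb6, 2 of the 9 members that reached 5 FPKM in each sample, were similar, against 68.4% of 7037 such genes. Tuba1c, Tubb5 and Tubg1 lay between these limits. The median difference of the 10 genes was 1.47 in log2, beside -0.0029 over the 10744 genes.

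**Figure D1:**
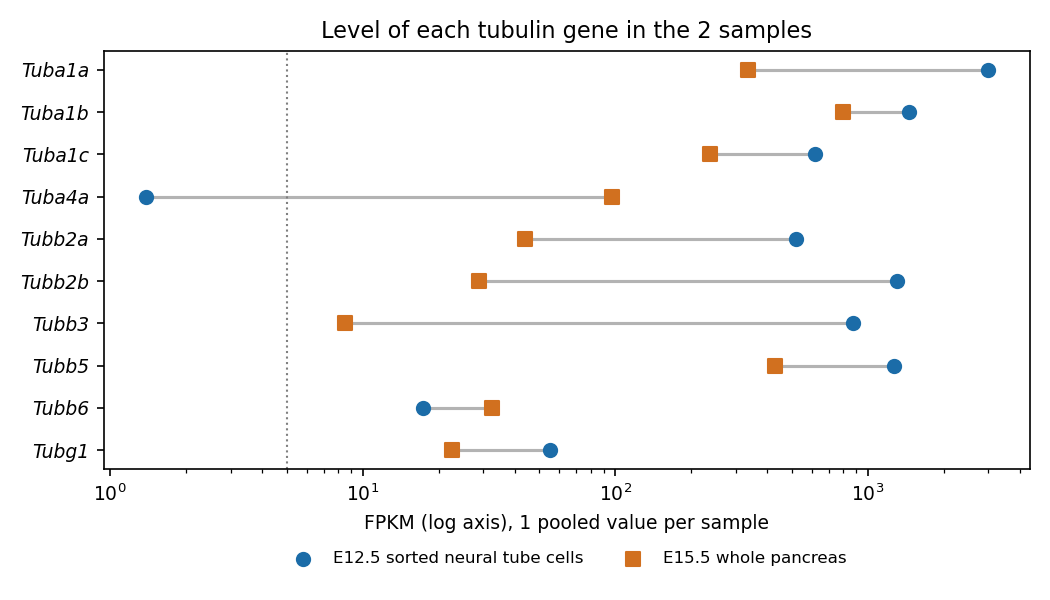
Level of each of the 10 tubulin genes in FPKM (log axis) in sorted E12.5 neural tube cells (circles) and whole E15.5 pancreas (squares), 1 pooled value per gene and sample without error bars; the dotted line marks 5 FPKM. Tubb3 ran from 869 to 8.51 FPKM and Tuba4a the other way, from 1.38 to 96.7, while Tuba1b and Tubb6 lay close in both samples.

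Among the alpha tubulins the leading gene changed. Tuba1a, the alpha isotype typical of young neurons (chromosome 15, 98780272 to 98783982, minus strand, 4 exons), was at 2977 FPKM in neural tube, where it was the sixth most abundant of all genes, and at 336 FPKM in pancreas. The ratio was 8.87, or 3.15 on the log2(FPKM + 1) scale. Tuba1b, a broadly expressed isotype lying 15275 bases away on the same strand (98761856 to 98764996), stood at 1453 FPKM in neural tube and at 794 FPKM in pancreas, a ratio of 1.83. Tuba1a was thus 2.05 times Tuba1b in neural tube, and Tuba1b was 2.37 times Tuba1a in pancreas. Tuba1c, on the plus strand of the same region (98860322 to 98868536), was at 616 and 237 FPKM, a ratio of 2.60. Each of these alpha genes had its lower value in pancreas, with the widest margin for Tuba1a and the narrowest for Tuba1b.

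Tuba4a (chromosome 1, 75211549 to 75215828, minus strand), the isotype without the encoded tyrosine, went against the other alpha genes. It was at 1.38 FPKM in neural tube and 96.7 FPKM in pancreas, 69.9 times higher in pancreas (-5.36 on the log2(FPKM + 1) scale). In neural tube Tuba1a was 2151 times Tuba4a, and in pancreas 3.47 times. The neural tube value corresponded to about 70 fragments, from the depth estimate given with the processing. Taken as fragments of Tuba4a, that was low but not at the limit of detection. Stk16, a kinase gene that overlaps Tuba4a on the opposite strand, was at 19.8 and 17.8 FPKM, close in both samples. The strand setting was not given, and whether some of the fragments counted for Tuba4a came from Stk16 was not tested.

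Among the beta tubulins the ratios ran from the widest of the 10 genes to some of the narrowest. Tubb3, the neuronal beta isotype (chromosome 8, 125935324 to 125945915, plus strand), was at 869 FPKM in neural tube and 8.51 FPKM in pancreas, a ratio of 102 (6.51 in log2). Gm20388, an annotated gene that overlaps Tubb3 on the same strand, was not analysed here. Tubb3 was the fifth most abundant of the 10 genes in neural tube and the least abundant in pancreas. Tubb2b, an isotype of neurons and their progenitors (chromosome 13, 34218877 to 34222223, minus strand), was at 1307 against 28.9 FPKM, a ratio of 45.2. Its neighbour Tubb2a, 48999 bases away on the same strand (34166170 to 34169877), was at 518 against 44.0 FPKM, a ratio of 11.8. Tubb2b was therefore 2.52 times Tubb2a in neural tube, while in pancreas Tubb2a was 1.52 times Tubb2b. Tubb2a, Tubb2b and Tubb3 together summed to 2694 FPKM in neural tube and 81.4 FPKM in pancreas.

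Tubb5, a beta isotype common in dividing cells (chromosome 17, 35970871 to 35975251, minus strand), was at 1273 FPKM in neural tube and 428 FPKM in pancreas. Its ratio of 2.97 was below the 4 times of the rule, and it was called higher in neural tube when the samples were rescaled to housekeeping genes or to equal totals. Tubb6, an isotype found at low level in many tissues (chromosome 18, 67550371 to 67562402, plus strand), was the 1 beta member of higher value in pancreas, at 32.4 FPKM against 17.4, which counts as similar. Tubb5 was 1.46 times Tubb3 in neural tube and 50.3 times Tubb3 in pancreas. Tubb6 was 0.0200 of Tubb3 in neural tube and 3.80 times Tubb3 in pancreas.

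Tubg1, the main gamma tubulin gene (chromosome 11, 100981252 to 100987733, plus strand, 11 exons), was at 55.1 FPKM in neural tube and 22.6 FPKM in pancreas. The ratio of 2.44 was not called. It was among the less abundant of the 10 genes in both samples, at rank 8 in neural tube and 9 in pancreas.

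The make-up of the tubulin pool is independent of how the samples are scaled, because any factor applied to a whole sample cancels in a share. Of the summed FPKM of the 10 genes, Tuba1a took 32.8% in neural tube and 16.6% in pancreas. Tuba1b took 15.99% and 39.2%. Tuba4a took 0.0152% in neural tube and 4.77% in pancreas. Tubb2b took 14.4% in neural tube and 1.43% in pancreas, and Tubb3 took 9.56% and 0.420%. Tubb5 took 14.0% and 21.1%. The smaller shares were 6.78% and 11.7% for Tuba1c, 5.70% and 2.17% for Tubb2a, 0.191% and 1.60% for Tubb6, and 0.606% and 1.12% for Tubg1. The 4 most abundant genes held 77.1% of the pool in neural tube and 88.5% in pancreas, so this pool of 10 was more spread in neural tube. These shares leave out Tubb4b, a beta tubulin outside the 10 genes, at 166 FPKM in neural tube and 218 FPKM in pancreas. They also rest on separate values of the Tuba1 genes, whose limits are given below.

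**Figure D2:**
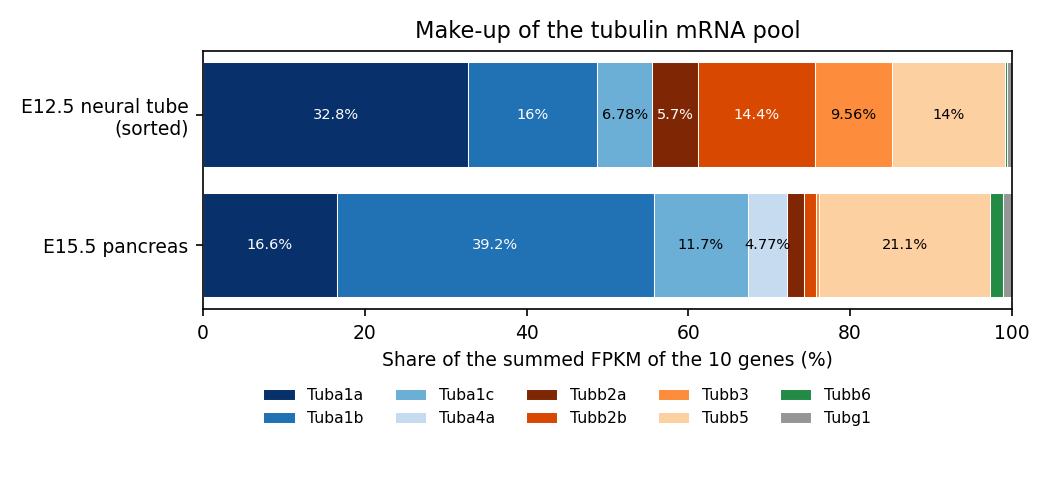
Share of each gene in the summed FPKM of the 10 tubulin genes, in percent, for the 2 samples; segments under 4% carry no number. Tuba1a (32.8%) led in neural tube and Tuba1b (39.2%) in pancreas, and the orange-brown segments of Tubb2a, Tubb2b and Tubb3 took 29.6% in neural tube and 4.01% in pancreas.

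The make-up within each class differed too. Of the summed FPKM of the 5 beta members, Tubb5 held 79.0% in pancreas and 31.9% in neural tube. Tubb2b held 32.8% in neural tube and 5.34% in pancreas, and Tubb3 21.8% and 1.57%. Tubb2a, Tubb2b and Tubb3 together made up 67.6% of the beta members in neural tube and 15.0% in pancreas. Of the alpha members, Tuba1a held 59.0% in neural tube and 22.9% in pancreas, Tuba1b 28.8% and 54.3%, Tuba1c 12.2% and 16.2%, and Tuba4a 0.0274% and 6.61%. In neural tube none of the 5 beta members held more than 32.8% of their sum, and in pancreas Tubb5 alone exceeded the sum of the others. Beta tubulins outside the 10 genes are not counted in these class shares. Over all tubulins in the table, pancreas gave 18.9% for Tubb5 and 33.8% for all beta tubulins together, so Tubb5 led there by less.

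The summed alpha to beta level also differed. The alpha members exceeded the beta members 1.27 times in neural tube and 2.70 times in pancreas, and beta members made up 43.8% and 26.7% of the pool of 10. With every alpha and beta tubulin in the table counted, 8 of each class, the ratios were 1.19 and 1.91. The difference between these pairs of values came mostly from Tubb4b, a broadly expressed beta isotype outside the 10 genes, at 166 FPKM in neural tube and 218 FPKM in pancreas, where it stood second among beta tubulins after Tubb5.

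Of a list of 12 further tubulin symbols 10 were found. The other two, Tubb2c and Tubb4, are older names of Tubb4b and Tubb4a, which were found. Tubb4a, a beta isotype of brain, was the 1 called, at 77.3 FPKM in neural tube and 6.07 FPKM in pancreas, 12.7 times higher in neural tube. Tubb4b was similar. Tubg2, the second gamma tubulin, was at 6.15 and 1.54 FPKM, and Tubd1 and Tube1, the delta and epsilon tubulins of centrioles, were at 2.82 and 5.17 FPKM and at 4.72 and 4.08 FPKM. The rest, Tuba3a, Tuba3b, Tuba8, Tubal3 and Tubb1, were below 1 FPKM in both samples.

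Several members have near-identical coding sequences, so how the authors assigned reads to genes bears on their separate values. Coding identity was 98.3% between Tuba1a and Tuba1b, 97.1% between Tuba1a and Tuba1c and 96.5% between Tubb2a and Tubb2b. Of the 50-base windows of each transcript, 85.7% in Tuba1b, 71.9% in Tuba1a and 63.2% in Tuba1c also occurred elsewhere in the genome or in another tubulin transcript. The share was 57.3% in Tubb2b and 50.4% in Tubb2a, but 11.5% in Tubb3, 8.96% in Tubg1, 1.55% in Tuba4a, 1.39% in Tubb5 and 0 in Tubb6. The values of Tuba1a, Tuba1b and Tuba1c, and of Tubb2a and Tubb2b, are therefore uncertain as separate values. For Tubb3, Tuba4a, Tubb5 and Tubb6 most windows did not recur elsewhere. Matches inside a gene's own span were left out, so overlap of Gm20388 with Tubb3 and of Stk16 with Tuba4a was not counted. Summed, Tuba1a, Tuba1b and Tuba1c gave 5046 FPKM in neural tube against 1367 FPKM in pancreas, a ratio of 3.69. Tubb2a and Tubb2b summed to 1825 and 72.9 FPKM, a ratio of 25.03. Summing does not remove all of the uncertainty. Windows that also occurred outside the tubulin genes considered made up 67.3% of Tuba1a, 78.9% of Tuba1b and 55.8% of Tuba1c. For Tubb2a they made up 23.8% and for Tubb2b 35.5%. The alpha to beta ratios given above carry the same limit.

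**Figure D3:**
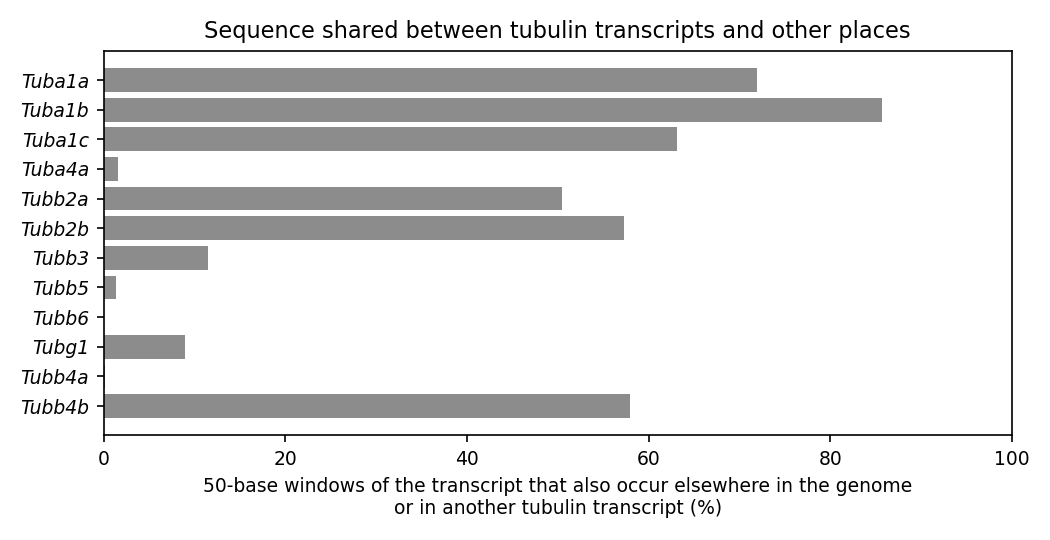
Percent of the 50-base windows of each GENCODE M1 tubulin transcript that also occur elsewhere in the NCBIM37 genome or in another tubulin transcript of the plot. The Tuba1 genes (63.2% to 85.7%), Tubb2a, Tubb2b and Tubb4b share 50.4% or more, while Tuba4a, Tubb5, Tubb6 and Tubb4a lie at or near 0.

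The 250 bases before the annotated start are shown for the genes with the widest difference in each direction, Tubb3 and Tuba4a, and for the neighbours Tuba1a and Tuba1b, which differed unequally. They come from RefSeq on GRCm38.p6, which is not the build of the coordinates above, and 7 of the 10 genes had an entry. Capitals mark CANNTG, the E-box core to which basic helix-loop-helix factors such as Ptf1a bind, searched on both strands.
Tubb3 (chr8:123411303-123411552, plus strand): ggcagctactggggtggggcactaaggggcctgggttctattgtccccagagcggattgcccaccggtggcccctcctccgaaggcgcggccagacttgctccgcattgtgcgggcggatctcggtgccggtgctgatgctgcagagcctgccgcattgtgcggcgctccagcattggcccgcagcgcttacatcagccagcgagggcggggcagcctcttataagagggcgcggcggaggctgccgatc
Tuba1a (chr15:98953502-98953751, minus strand): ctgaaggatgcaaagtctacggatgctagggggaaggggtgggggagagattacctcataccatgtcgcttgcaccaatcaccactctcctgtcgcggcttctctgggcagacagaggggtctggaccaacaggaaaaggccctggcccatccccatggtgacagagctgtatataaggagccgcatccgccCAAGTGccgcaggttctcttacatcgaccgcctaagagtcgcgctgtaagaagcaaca
Tuba1b (chr15:98934391-98934640, minus strand): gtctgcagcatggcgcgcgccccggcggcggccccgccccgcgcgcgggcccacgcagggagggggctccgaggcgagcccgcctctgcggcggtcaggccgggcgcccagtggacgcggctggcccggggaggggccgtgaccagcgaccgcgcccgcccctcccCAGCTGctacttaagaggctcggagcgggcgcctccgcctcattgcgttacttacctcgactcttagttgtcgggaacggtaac
Tuba4a (chr1:75219295-75219544, minus strand): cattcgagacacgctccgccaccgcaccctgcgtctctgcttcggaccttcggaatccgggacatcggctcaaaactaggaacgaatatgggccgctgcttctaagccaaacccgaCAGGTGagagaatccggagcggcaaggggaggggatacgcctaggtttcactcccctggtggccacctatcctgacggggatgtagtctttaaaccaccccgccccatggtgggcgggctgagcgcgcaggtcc
CANNTG was found once each in the windows of Tuba1a, Tuba1b and Tuba4a and 0 times in that of Tubb3. Among all 27025 promoters of the same length 66.0% held it. The one in Tuba1b reads CAGCTG, a form that 12.8% of all promoters held. GGGCGG, the core of the GC box, occurred 2 times in Tubb3, 2 in Tuba1b, 2 in Tuba4a and once in Tuba1a, and 32.9% of all promoters held it. CCAAT occurred once in Tubb3 and once in Tuba1a, against 34.5% of all promoters. These are matches of letters and were not tied to binding.

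The other genes listed fold, modify or nucleate tubulin. Their counts are to be read beside the 10.3% of all genes higher in neural tube and the 11.9% higher in pancreas. Similar genes made up 68.4% of those at 5 FPKM or more in both samples. Some listed genes fell under 5 FPKM in 1 sample and so could not count as similar. Of 15 genes of the CCT chaperonin, which folds newly made tubulin, and of prefoldin, which hands it over, 14 were found and 13 reached 5 FPKM in either sample. Of these 0 were called in either direction and 9 were similar, with a median of -0.74 in log2(FPKM + 1). In 12 of the 13 the value was higher in pancreas, beside 5378 of the 10744 genes. That count depends on scaling, because rescaling to equal totals moved the log2 of the FPKM ratio by 0.63 toward neural tube. Cct5, of highest mean level, was at 188 FPKM in neural tube and 313 FPKM in pancreas.

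Among the 7 folding cofactors, which assemble the alpha and beta heterodimer, 1 was called. Tbca, the cofactor that binds beta tubulin, was at 51.8 FPKM in neural tube and 383 FPKM in pancreas, 7.39 times higher in pancreas. The others were not called, with 4 of the 7 similar and a list median of 0.62.

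Of 29 symbols listed for tubulin-modifying enzymes 26 were found and 12 reached 5 FPKM, of which 3 were higher in neural tube (median 1.24) and 0 in the other direction. Atat1, the acetyltransferase of alpha tubulin, was at 115 FPKM against 6.58 in pancreas, a ratio of 17.5. Vash1 and Vash2, the vasohibins that remove the terminal tyrosine of alpha tubulin, were at 35.7 against 5.45 FPKM and at 25.4 against 5.00 FPKM. Ccdc23, now Svbp, which the vasohibins need as a partner, was similar at 39.6 and 42.4 FPKM. Ttl, the ligase that restores the tyrosine, was at 11.3 and 4.49 FPKM, below the rule. Both of these last were picked after their values were seen. With a pseudocount of 5 FPKM the count toward neural tube was 1 in place of 3, and with rescaling to equal totals it was 5. With a threshold of 8 times it was 1.

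For the gamma tubulin ring complex and its centrosomal anchors, 0 of 11 genes were called and 7 were similar, with a median of 0.38. Tubgcp2, a core subunit and the gene of highest mean level, was at 27.5 FPKM in neural tube and 17.8 FPKM in pancreas. Under rescaling to housekeeping genes or to equal totals, 1 of the 11 was called higher in neural tube.

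**Figure D4:**
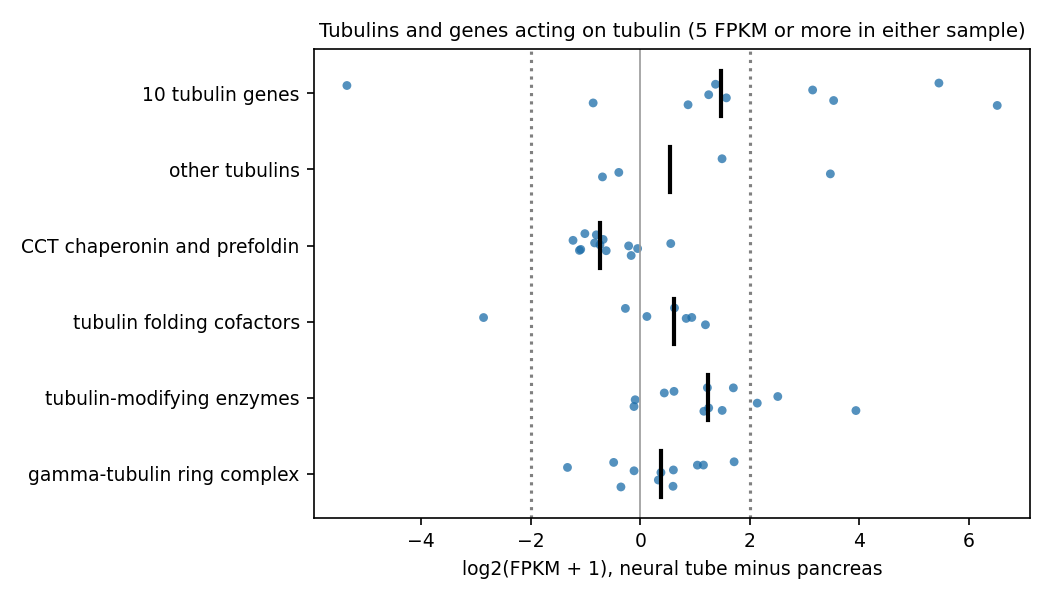
Difference in log2(FPKM + 1), neural tube minus pancreas, of each gene that reached 5 FPKM (points, spread vertically at random), by list, with the list's median as a black bar and the 4 times rule as dotted lines. The 10 tubulin genes span -5.36 to 6.51, and the chaperonin genes stay inside the dotted lines.

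Markers of cell types also differed between the samples. All 9 neuron markers found of 10 listed were higher in neural tube, with summed levels of 788 FPKM there and 42.1 FPKM in pancreas, and 6 of 6 neural progenitor markers were higher there too, at 645 and 30.4 FPKM. None of these markers was at 0 in pancreas, where the neuron markers ranged from 0.360 to 14.2 FPKM, and 6 markers of crest cells and peripheral neurons summed to 20.2 FPKM in pancreas. Of 7 acinar markers 6 were higher in pancreas, with summed levels of 27868 FPKM there and 0.383 FPKM in neural tube, where Pnlip was at 0. Endocrine markers summed to 2401 FPKM in pancreas and 45.3 in neural tube, where Ins1 and Ins2 were at 0. Only 3 of these 6 markers were called higher in pancreas. Neurod1 went the other way, at 11.95 FPKM in neural tube and 6.63 FPKM in pancreas, which counts as similar. Summed levels in pancreas and neural tube were 1010 and 4.68 FPKM for duct, 1049 and 27.1 for mesenchyme, 76.1 and 8.28 for endothelium and 211 and 3.49 for macrophage markers, none at 0. Erythroid markers, which include globins, summed to 15860 FPKM in pancreas and 607 in neural tube. Which of these cells the tubulin transcripts came from was not tested, and in bulk samples fewer cells of a type and less RNA per cell cannot be told apart. Tissue, stage, sorting, dissociation and RNA extraction all differed between the same 2 samples and cannot be told apart.

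**Figure D5:**
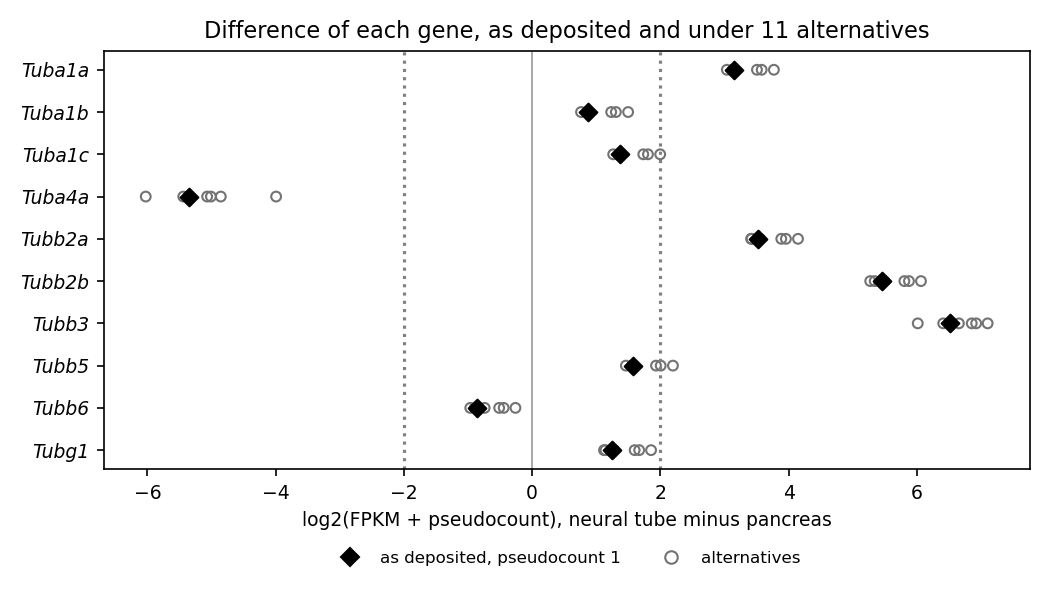
Difference of each tubulin gene, neural tube minus pancreas in log2(FPKM + pseudocount), as deposited (diamonds) and under 11 alternatives of pseudocount, minimum level, threshold and scaling (circles), with the 4 times rule as dotted lines. No gene changed sign, which among the alternatives only the rescalings could alter. Tubb3 lay between 6.01 and 7.11 and Tuba4a between -6.03 and -3.99.

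The genes most like 3 of the members in both values were found by the distance between log2(FPKM + 1) values over the 2 samples, tubulins left out. Nearest to Tubb3 were Ckb, the brain creatine kinase, at 964 and 20.7 FPKM (distance 1.20), Mir196a-1 at 288 and 11.3 FPKM (1.63) and Dpysl3, a regulator of the growth cone, at 299 and 12.996 FPKM (1.63). No other gene was within 1.20 of Tubb3. Nearest to Tuba1b were the ribosomal protein gene Rpl36 at 1474 and 785 FPKM (0.0266) and the cytoplasmic actins Actb, at 1484 and 734 FPKM (0.117), and Actg1, at 1634 and 878 FPKM (0.223). Nearest to Tubb6 were Rnpep, Dhrs1 and Taf13, within 0.0598. With only 2 samples such likeness is a matter of level and ratio.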

How the data were processed

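RNA was sequenced from GFP-positive E12.5 neural tube cells and whole E15.5 pancreas, 1 sample each of 2 libraries. Values were FPKM as the authors deposited them, 1 pooled value per gene and sample, which depend on the transcript length assumed. Cuffdiff version 2.0.2, TopHat2 version 2.0.4, TopHat and CASAVA are listed with build mm9, per the submitters' processing notes. Not given in the sources used here are their roles, the annotation, the strand setting and the treatment of reads with several matches. According to the labels' protocols, neural tube RNA was extracted with a Zymo kit and pancreas RNA with Trizol.

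Differences were log2(FPKM + 1), neural tube minus pancreas, a scale that understates those of low genes; ratios are of FPKM. With 1 value per sample no test, SD or p-value is given. Coordinates, transcripts and coding sequences came from GENCODE M1 (NCBIM37, which is mm9), in which all 10 genes were found (Tubb4a and Tubb4b through their older symbols). Coding and protein identities are those of global alignments (Biopython 1.88), and 50-base windows were matched exactly on both strands. The members and lists were chosen with earlier results of these data known. The genes named were the 10 members, other tubulins at 1 FPKM or more, called genes and the highest mean of each list, cell type markers listed at 0, the 3 nearest genes of Tubb3, Tubb6 and Tuba1b, and those said to be picked after their values were seen. Outside that rule, the tubulins below 1 FPKM are named to complete the list, and Stk16 and Gm20388 because they overlap a member. Neurod1 is named as the endocrine marker with its higher value in neural tube. The calculation of the calls, not the calls themselves, was tested on simulated data.

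Depth was estimated from the low values, since the table gives no counts. The commonest low value of FPKM multiplied by length, among genes of 1 transcript, was taken as 1 fragment. For 1 kb of transcript it came to 0.0407 FPKM in the neural tube sample and 0.0245 in the pancreas sample, and 3 fragments to 0.122 and 0.0736. By these steps the members held about 70 (Tuba4a) to 120364 (Tuba1a) fragments in neural tube and 648 (Tubb3) to 56381 (Tuba1b) in pancreas. Alternatives were pseudocounts of 0.1 and 5, no minimum level or 10 FPKM, thresholds of 2 and 8 times, similarity within 1.5 times, 5 rescalings, and other sets or length weights for the shares. Chromatin samples are not analysed here.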

Additional observations from a re-analysis of the deposited data

How the results depend on the processing

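All 10 genes kept the sign of their difference under the 5 rescalings, the only ones of the 11 alternatives that could change it. Changes of the minimum level could alter no call of higher, because every member exceeded 10 FPKM in its higher sample. Over all 11 alternatives, in 105 of the 110 values the gene was called higher, or not, as with the deposited values. Loss of the similar call was not counted in this. The other 5 were new calls toward neural tube. For Tuba1c, Tubb5 and Tubg1 they came from lowering the threshold to 2 times, with the differences themselves unchanged, which raised the count of genes higher in neural tube from 4 to 7. Tubb5 also passed the 4 times rule with rescaling to the housekeeping list (2.01) and to equal totals (2.20). The count higher in pancreas was 1 throughout. The count of similar genes, 2 as deposited, was 1 with the housekeeping list or equal totals, where Tuba1b no longer counted, and 0 with similarity within 1.5 times. Tuba1b also lost that call, at 1.23, with equal totals without the 50 highest genes of each sample. The ratio of summed FPKM, 4.48, became 6.92 with equal totals. Rescaling moved the log2 of the FPKM ratio by 0.63 with equal totals, 0.44 with the housekeeping list, 0.36 without the 50 highest genes of each sample and -0.11 with the upper quartile, and low genes moved by less on the log2(FPKM + 1) scale. The beta share of the pool was 45.2% in neural tube and 33.8% in pancreas over all tubulins in the table, and 48.8% and 33.4% when weighted by transcript length. No paired analysis was possible because each tissue had 1 pooled RNA value per gene and no replicate number.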

Other observations

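A further tubulin row of the table, Tubb2a-ps2, whose name is that of a pseudogene of Tubb2a, was at 94.5 FPKM in neural tube and 0.577 FPKM in pancreas. It was looked at after the values were seen. Its share of reads with Tubb2a or Tubb2b was not measured here, because the annotation used holds no transcript of that name. Of the windows of Tubb2a, 46.4% occurred in Tubb2b and 23.8% in places outside the tubulin genes considered, and of those of Tubb2b 35.5% occurred in such other places.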
